A study of Danio rerio with 18 samples.

Results

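The retinal pigment epithelium (RPE) of zebrafish larvae whose RPE was left unablated was compared at 7 and 4 days post injury (dpi), a time scale counted from the injury given to the ablated larvae of the series. The comparison holds 6 of the 18 libraries of the series: 3 unablated (MTZ-) libraries at 7 dpi and 3 unablated libraries at 4 dpi, chosen by their labels alone. The other libraries are 3 unablated ones at 2 dpi and 9 from ablated larvae (MTZ+), at the same 3 times. Each library is bulk RNA of at most 1000 eGFP+ cells sorted by flow cytometry from dissociated, enucleated larval eyes.

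All groups used here carried eGFP in the sorted cells and were reared in 1.5X PTU, an inhibitor of melanin synthesis, from 0.25 to 5 days post fertilization (dpf). Ablated larvae were then exposed to 10 mM metronidazole (MTZ) for 24 h from 5 to 6 dpf, and unablated larvae were not. The labels put the samples on the dpi scale without an age in days, do not name the promoter of the transgene, and describe no group given the drug without ablation. Nor do they say whether the 3 replicates of a group came from separate clutches, so the p-values below measure the spread between these samples, which may in part be technical. The library used here as unablated 4 dpi replicate 1 has a sequencing name containing the word positive, which the submitters describe as a naming error.

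The RPE is a single layer of pigmented cells behind the photoreceptors. It turns all-trans retinoids back into the 11-cis chromophore of the opsins (the visual cycle), engulfs shed photoreceptor outer segments, carries nutrients between choroid and retina, and holds melanin in melanosomes. In zebrafish these functions are set up in the first days of life and the layer goes on maturing through larval stages, during which the retina keeps adding cells at its margin.

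Depth was 25052682 to 33302528 counts a library at 7 dpi and 35295017 to 54003017 at 4 dpi, with 21028 to 22441 and 20352 to 25105 genes detected. A count of 3 corresponds to 0.0841 to 0.115 CPM (counts scaled to each library's normalized total) at 7 dpi and to 0.057 to 0.0793 CPM at 4 dpi, a floor that covers counting error only. The correlation of log CPM over genes was 0.84 to 0.86 between libraries within 7 dpi, 0.869 to 0.886 within 4 dpi, and 0.842 to 0.902 between the 2 times. Correlations between the times thus reached above those within either time. Replicates 2 of both times share a date in their sequencing names, which leaves 1 library a time and no test within that date.

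The cells carried RPE transcripts at very high levels at both times. On the authors' TPM scale, which divides by transcript length, rpe65a, the retinoid isomerase of the visual cycle, stood at 22430 ± 9916 TPM at 7 dpi and 16580 ± 3816 TPM at 4 dpi (SD, n = 3 each). A retinol-binding protein gene, rbp4l, stood at 11390 ± 4688 TPM at 7 dpi and 9121 ± 3154 TPM at 4 dpi. Among the 25 genes highest in TPM at each time, 21 were in both sets. The RPE label of the sort therefore had its defining markers in every library.

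No gene differed between 7 and 4 dpi at an adjusted p under 0.05. Of 20093 genes tested with edgeR's quasi-likelihood test, 0 passed (0%), and the smallest adjusted p was 1. At an unadjusted p under 0.05 there were 438 genes higher at 7 dpi (2.18%) and 397 lower (1.98%), 835 in all. The limma-voom test also called 0 genes, whereas DESeq2's Wald test called 44, 19 higher and 25 lower, of which 21 had a fitted difference beyond 10 on the log2 scale. By sign alone, 50.6% of tested genes were higher at 7 dpi and 49.3% lower, with a median log2 difference of 0.009. In 694 genes (3.45%) all 3 libraries at 7 dpi lay above all 3 at 4 dpi, and in 804 genes (4%) they lay below. Verbs of change are therefore not used below, and differences are given as values with their intervals.

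The spread between replicates sets what could have been seen. The biological coefficient of variation over all 18 libraries was 79.9%. Among 1385 genes with at least 100 CPM, the 95% interval of the log2 difference had a median half-width of 1.08, and in 205 of them (14.8%) the whole interval lay within 1 log2 unit of 0. Over all tested genes the half-width was 1.76, and 1035 genes (5.15%) had such an interval. A difference of 2-fold in a single gene was thus mostly not detectable with these libraries. These intervals are not adjusted for the number of genes tested, so passing the adjusted threshold took a larger difference still. Even the smallest unadjusted p in edgeR, 0.000347, did not pass. The 0 calls therefore do not exclude differences well above 2-fold in single genes. Since the RNA is bulk, fewer cells of a type and less RNA per cell cannot be told apart in any value below.

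The visual cycle genes had summed levels that overlapped between the times, with wide scatter between replicates. The 20 genes of the RPE and visual cycle list summed to 91250, 47860 and 61610 CPM in the 7 dpi libraries, against 58410, 65900 and 60750 CPM at 4 dpi. The sums overlap, and replicate 1 at 7 dpi is the highest of the 6. By sign, 9 of the 19 tested genes were higher at 7 dpi and 10 lower. None had an unadjusted p under 0.05, and the median log2 difference was -0.10.

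Single visual cycle genes went both ways. The isomerase gene rpe65a (chr2:2316199-2331029, GRCz10) had 27850, 13450 and 17800 CPM at 7 dpi, against 11690, 14440 and 15170 CPM at 4 dpi. The 2 groups overlap, and the log2 difference was 0.52 (SE 0.52, 95% interval -0.57 to 1.61). For rlbp1b, which encodes the 11-cis-retinal carrier CRALBP, values were 17720, 7858 and 7638 CPM at 7 dpi and 14850, 16830 and 12300 CPM at 4 dpi, a log2 difference of -0.40 (interval -1.57 to 0.76). Replicate 1 at 7 dpi was above all 4 dpi libraries for this gene while the other two were below. For rgrb, an RPE opsin that isomerizes retinoids in light, 10470, 6536 and 3724 CPM were counted at 7 dpi, against 8563, 7948 and 6730 CPM at 4 dpi. The acyltransferase gene lrata, which makes the retinyl esters that rpe65a uses, had 863.2, 509.6 and 45.6 CPM at 7 dpi and 2309, 764.3 and 559.9 CPM at 4 dpi, with a log2 difference of -1.36 (interval -3.38 to 0.67). Its lowest value, in replicate 3 at 7 dpi, was far under every other library.

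In this list 1 of the 19 tested genes separated the groups, higher at 7 dpi, where 3.45% of all tested genes did so. The lactate exporter slc16a8 (MCT3), a transporter of the basal RPE membrane in mammals, had 453.9, 324.1 and 1040 CPM at 7 dpi, against 307.3, 229.5 and 292.1 CPM at 4 dpi. All 3 later libraries lay above the 3 earlier ones, though replicate 2 only narrowly, and the log2 difference of 1.13 had an interval of -0.26 to 2.52. The retinol receptor stra6 was the one gene of the list measured closely enough to bound its difference within 1 log2 unit, at 4018 ± 1377 CPM at 7 dpi and 3660 ± 604 CPM at 4 dpi, with a log2 difference of 0.13 and an interval of -0.70 to 0.97.

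**Figure D1:**
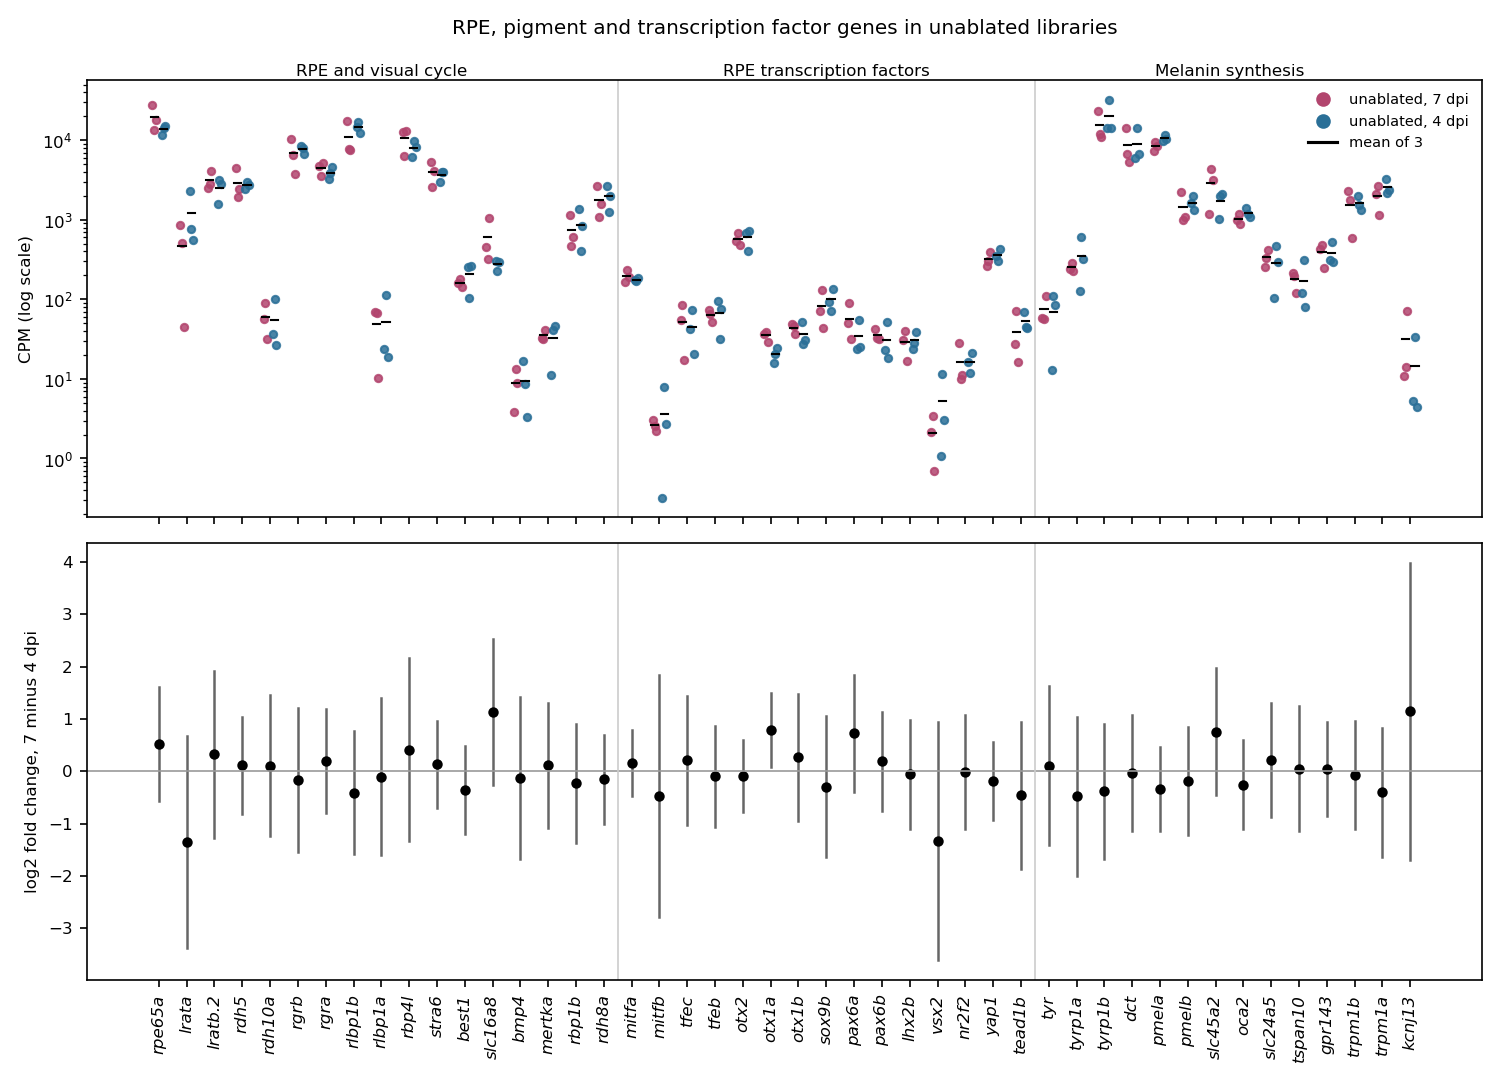
Upper panel, CPM on a log axis in each unablated library at 7 dpi (left of each pair) and 4 dpi for genes of the visual cycle, RPE transcription factors and melanin synthesis with a 4 dpi mean of at least 1 CPM. Lower panel, the log2 difference of 7 minus 4 dpi with its 95% interval; most intervals span 0, and that of otx1a (0.08 to 1.49) does not.

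Among transcription factors that specify the RPE, otx1a was the one with an unadjusted p under 0.05 in edgeR, where 2.18% of all genes were higher. This homeobox gene, a paralog of the RPE determinant otx2, had 36.9, 39.3 and 29.4 CPM at 7 dpi, against 15.98, 20.8 and 24.4 CPM at 4 dpi. The groups do not overlap, and the log2 difference was 0.79 (SE 0.34, interval 0.08 to 1.49) at an unadjusted p of 0.0313 in edgeR. Of the 15 tested factors, 6 were higher by sign and 9 lower, with a median of -0.06 and single differences from -1.33 to 0.79. In 3 of the 15 the interval lay within 1 log2 unit of 0.

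The core factors mitfa and otx2 had intervals that held differences of either sign. For mitfa, the regulator of pigment cell genes, 164.7, 234.2 and 191.1 CPM were counted at 7 dpi and 173.2, 169.8 and 184 CPM at 4 dpi (log2 difference 0.16, interval -0.47 to 0.80). For otx2 the counts gave 547.1, 690.3 and 475.9 CPM at 7 dpi, against 679.3, 405.8 and 732.5 CPM at 4 dpi (log2 difference -0.09, interval -0.78 to 0.61). Both pairs of groups overlap, and both intervals lie within 1 log2 unit of 0.

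Melanin synthesis genes had summed levels that overlapped between the 2 times, with larvae longer out of PTU at 7 dpi. Sums over 15 genes were 55010, 40630 and 32840 CPM at 7 dpi, against 40220, 68970 and 40540 CPM at 4 dpi. The sums overlap, with replicate 2 at 4 dpi the highest. By sign 6 were higher and 9 lower (median log2 difference -0.06), none under an unadjusted p of 0.05. Single differences ran from -1.25 to 1.149, and in 1 of the 15 genes the interval lay within 1 log2 unit of 0.

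Within that list, 1 of the 15 tested genes had separate groups, lower at 7 dpi, where 4% of all tested genes did. It was pmela, which encodes the fibril protein of the melanosome, with 7383, 9428 and 8411 CPM at 7 dpi, against 9748, 11810 and 10340 CPM at 4 dpi, so that every later library was lower. Its log2 difference was -0.34 (SE 0.38, interval -1.15 to 0.47). The melanin enzyme gene tyrp1b had 23230, 12130 and 11050 CPM at 7 dpi, against 14390, 31930 and 14240 CPM at 4 dpi, and dct, which encodes dopachrome tautomerase, had 14360, 6657 and 5316 CPM at 7 dpi, against 6031, 14290 and 6643 CPM at 4 dpi. Replicate 1 was the highest at 7 dpi and replicate 2 at 4 dpi for both enzymes. For slc45a2, a melanosome transporter, 1194, 4392 and 3128 CPM at 7 dpi stood against 1030, 2020 and 2111 CPM at 4 dpi, with a log2 difference of 0.76 (interval -0.46 to 1.97). The genes that build and move melanosomes gave 6 higher and 11 lower of 17 (median -0.20).

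Genes of other RPE duties were also split in sign. Of 31 genes of phagocytosis and the lysosome, 15 were higher and 16 lower by sign (median -0.003), and ctsd, the protease that digests outer segment proteins, had 5698, 6463 and 7078 CPM at 7 dpi, against 15630, 3261 and 8087 CPM at 4 dpi. Of 31 RPE transporters, 13 were higher and 18 lower (median -0.09). In neither list was a gene under an unadjusted p of 0.05. The medians of the visual cycle, transcription factor, melanin, melanosome, lysosome and transporter lists each changed sign when 1 library was left out, and all stayed between -0.46 and 0.20.

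By count, endoplasmic reticulum and heat shock chaperones held more genes under 0.05 before adjustment than any other list of the 37 examined. Of 34 tested, 32 were higher at 7 dpi by sign and 8 of them had an unadjusted p under 0.05 in edgeR, where 2.18% of all genes were higher at that p, with a median log2 difference of 0.93. No gene of the list passed the adjusted threshold. By share, some shorter lists stood higher, such as the lens list (6 of 13 under 0.05 before adjustment) and the myelin list (3 of 9). Both counts were of lower genes, beside 1.98% of all genes lower at that p. Replicate 3 at 7 dpi held the highest value of the 6 libraries for 20 of the 34. Without that library, 28 were higher and 6 lower, 2 had an unadjusted p under 0.05 and the median was 0.70. Without replicate 2 at 7 dpi 14 genes had an unadjusted p under 0.05, without replicate 2 at 4 dpi 12 did (median 1.48), and without replicate 1 or replicate 3 at 4 dpi 5 did.

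Single chaperone genes differed in how far they followed replicate 3. The secreted ER protein manf (chr22:32274258-32280927), induced by ER stress, had 14.3, 16.6 and 43.6 CPM at 7 dpi, against 5.91, 9.60 and 8.35 CPM at 4 dpi. All later libraries were higher, and the log2 difference was 1.64 (SE 0.40, interval 0.80 to 2.49; unadjusted p = 0.000739 in edgeR). For hspa5, the main ER Hsp70 (BiP), 87.9, 57.9 and 293.7 CPM at 7 dpi stood against 13.8, 94.8 and 33.7 CPM at 4 dpi, so the groups overlap (log2 difference 1.63, interval 0.13 to 3.12). The calreticulin gene calr3b, a calcium-binding ER chaperone, had 45.2, 9.20 and 71.6 CPM at 7 dpi and 9.46, 22.2 and 13.0 CPM at 4 dpi, with replicate 2 at 7 dpi the lowest of the 6. For hspd1, the mitochondrial Hsp60, the values were 17.6, 13.1 and 72.3 CPM at 7 dpi, against 3.51, 13.3 and 11.3 CPM at 4 dpi. The cytosolic Hsp40 gene dnajb1a had 13.5, 16.4 and 24.3 CPM at 7 dpi and 4.12, 13.4 and 8.30 CPM at 4 dpi, and separated the groups by a small margin. For hsp90aa1.1, replicate 2 at 7 dpi alone was high, at 61.7 CPM beside 1.71 and 0.43 CPM in the other two, against 0.13, 2.79 and 1.16 CPM at 4 dpi. The abundant hspa8 and hsp90ab1 differed by -0.13 and 0.22 on the log2 scale.

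In ablated larvae the same chaperones ran the other way by sign. Over the same interval 7 of the 34 were higher and 27 lower (median -0.54), 5 of them at an unadjusted p under 0.05, where 4.09% of all genes were under 0.05. For manf the ablated libraries averaged 29.8 ± 7.24 CPM at 7 dpi and 53.1 ± 2.58 CPM at 4 dpi (SD, n = 3 each), a log2 difference of -0.83 (SE 0.39). The difference between the unablated and ablated changes of manf was 2.47 on the log2 scale (SE 0.56; unadjusted p = 0.000367, adjusted p = 0.99994 in edgeR). For calr3b, ablated libraries averaged 43.5 ± 4.30 CPM at 7 dpi and 136.6 ± 20.2 CPM at 4 dpi, and the difference of changes was 3.15 (SE 0.76). In all, 11 of the 34 chaperones had an unadjusted p under 0.05 for the difference, beside 3.47% of all genes, and none passed after adjustment. At 2 dpi the unablated libraries averaged 35.1 CPM of manf, so that the 4 dpi value of 7.95 CPM was the lowest of the 3 unablated times.

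**Figure D2:**
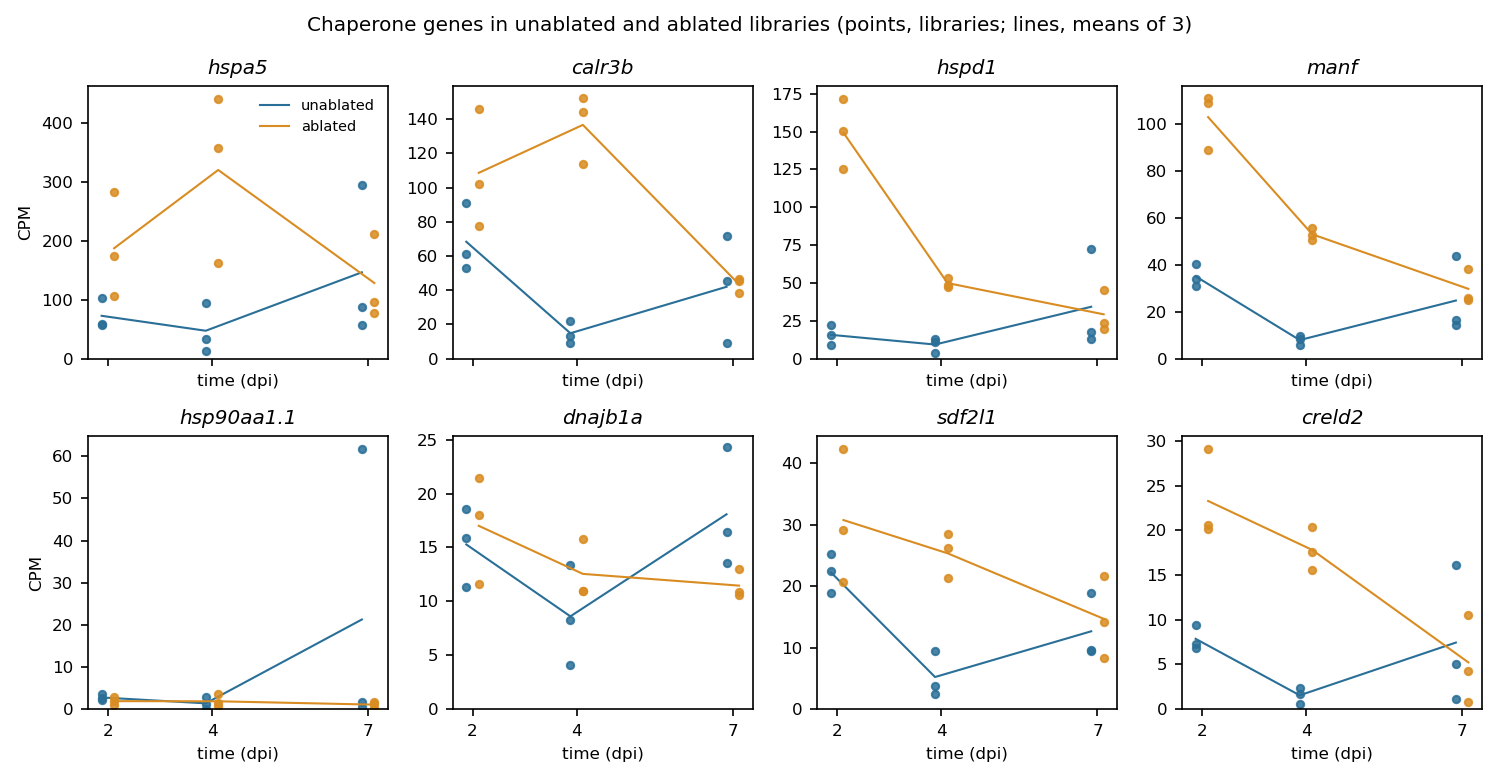
CPM of 8 chaperone genes with an unadjusted p under 0.05 (linear axis) at 2, 4 and 7 dpi in each unablated and each ablated library. For manf the unablated libraries at 7 dpi (14.3 to 43.6 CPM) lie above those at 4 dpi (5.91 to 9.60 CPM), and the ablated libraries run the other way.

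Genes of energy metabolism encoded in the nucleus differed little in size but often in rank. Summed CPM of 48 oxidative phosphorylation genes was 7540, 6957 and 7066 at 7 dpi, against 6085, 5399 and 6815 at 4 dpi, without overlap. By sign 34 were higher and 14 lower, with a median log2 difference of 0.10 (0.02 without replicate 2 at 4 dpi), and in 10 genes all 3 later libraries were above all 3 earlier ones, in 0 below, where the shares over all genes were 3.45% and 4%. At 2 dpi the same sums were 11210, 27460 and 37340 CPM, so the gap between 7 and 4 dpi was small beside the scatter within 2 dpi. The one member of the 48 with an unadjusted p under 0.05 was cycsb, where 2.18% of all genes were higher at that p. This cytochrome c gene had 140.6, 73.2 and 259 CPM at 7 dpi, against 48.0, 72.9 and 62.8 CPM at 4 dpi (log2 difference 1.36, SE 0.48, unadjusted p = 0.0113 in edgeR). For atp5b, a catalytic ATP synthase subunit, values were 743.6, 788.1 and 613.9 CPM at 7 dpi, against 492.4, 490.5 and 583.7 CPM at 4 dpi, all higher later, with a log2 difference of 0.45.

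Ribosomal protein and mitochondrially encoded genes were nearly all higher by sign, most of them with their highest value in 1 library. Of 71 cytosolic ribosomal protein genes, 70 were higher at 7 dpi, with a median log2 difference of 0.69 and none under an unadjusted p of 0.05. Their sums were 22870, 52710 and 41610 CPM at 7 dpi, against 12900, 26750 and 33720 CPM at 4 dpi, which overlap. Replicate 2 at 7 dpi held the highest value for 59 of the 71, and the median was 0.44 without it and 0.38 without replicate 1 at 4 dpi, the lowest. All 13 mitochondrially encoded genes were higher (median 0.71), none under an unadjusted p of 0.05, with sums of 49260, 103500 and 53790 CPM at 7 dpi, against 49980, 33380 and 54920 CPM at 4 dpi. Replicate 2 at 7 dpi was the highest for 12 of the 13, and without it 11 were higher and 2 lower, with a median of 0.47. In ablated larvae, all 71 and all 13 genes were higher at 7 dpi by sign too, with medians of 1.01 and 1.33. The share of counts from mitochondrially encoded genes was 7.25 ± 3.09% at 7 dpi and 4.92 ± 0.94% at 4 dpi (SD, n = 3 each; exact permutation test, two-sided p = 0.3, where 0.1 is the smallest that 3 against 3 allows).

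**Figure D3:**
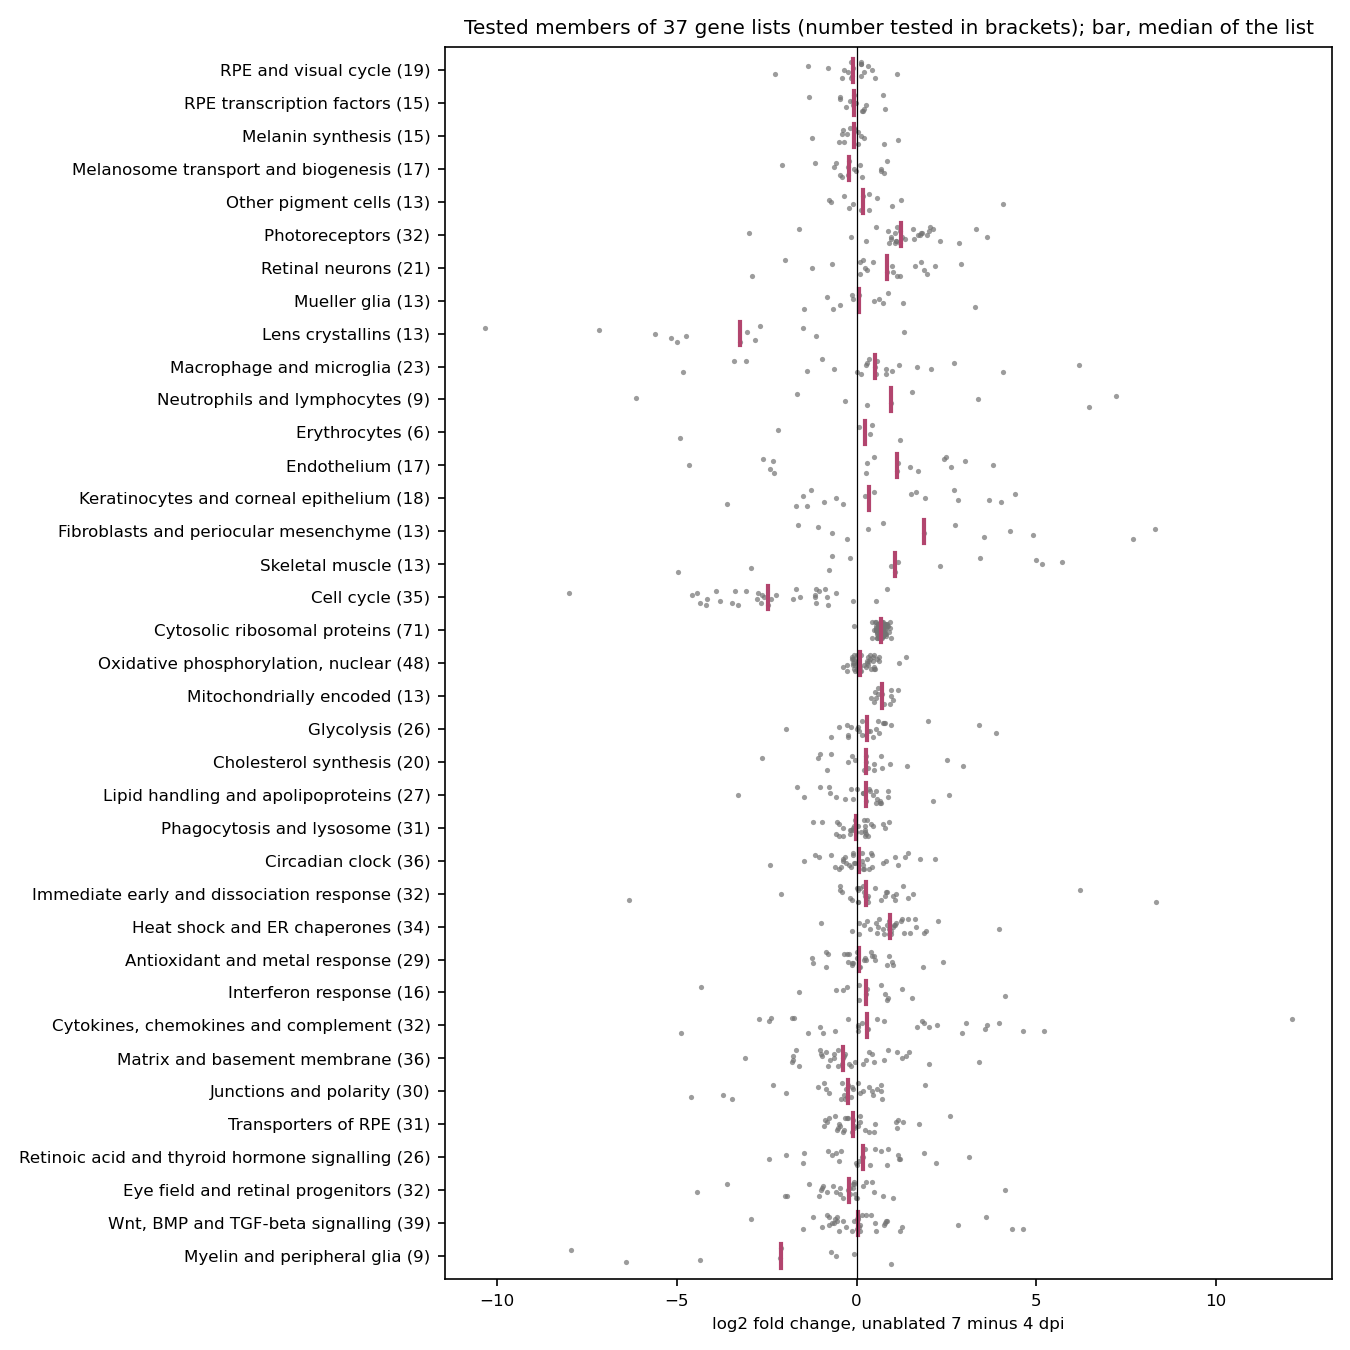
Log2 difference of 7 minus 4 dpi for each tested member (points) of the 37 gene lists, with a bar at each list's median. Ribosomal protein genes lie almost wholly above 0 (70 of 71), cell cycle genes almost wholly below (33 of 35), and the visual cycle and melanin lists lie around 0.

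Cell cycle genes were lower at 7 dpi, and this rested on 1 library. Of 35 tested, 33 were lower by sign and 2 higher, with a median log2 difference of -2.46. Under an unadjusted p of 0.05 were 4, namely aurkb, kif11, kif23 and nusap1, where 1.98% of all genes were lower at that p. Sums were 380.1, 165.5 and 162.6 CPM at 7 dpi, against 206.3, 1256 and 171.4 CPM at 4 dpi. Replicate 2 at 4 dpi held the highest value for 33 of the 35. The proliferation marker mki67 had 7.4, 0 and 0.066 CPM at 7 dpi, against 3.21, 60.5 and 0.34 CPM at 4 dpi. Without replicate 2 at 4 dpi, 16 genes were higher and 19 lower, the median was -0.19 and 2 genes, 1 in each direction, had an unadjusted p under 0.05. In 3 of the 35, plk1 and 2 others, all 7 dpi libraries lay below all 4 dpi libraries, beside 4% of all genes. For plk1, a mitotic kinase, 6.14, 6.03 and 4.20 CPM at 7 dpi stood against 20.2, 49.8 and 7.37 CPM at 4 dpi, with a log2 difference of -2.24 (unadjusted p = 0.0581 in edgeR).

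The same library was also the highest for most eye field and progenitor genes. Of 32 such genes, 8 were higher and 24 lower at 7 dpi (median -0.22), and replicate 2 at 4 dpi was the highest for 21. Without that library 21 were higher and 11 lower (median 0.35), and without replicate 3 at 7 dpi 18 were higher and 14 lower. Among the 32, her4.1, a Notch target of neural progenitors, was the one with an unadjusted p under 0.05. It was lower at 7 dpi, as were 1.98% of all genes at that p. Myelin and peripheral glia genes gave 1 higher and 8 lower of 9 (median -2.10), with replicate 2 at 4 dpi the highest for 6. Under 0.05 before adjustment were mbpa, plp1a and cldnk, all lower, beside 1.98% of all genes. Without replicate 2 at 4 dpi these myelin genes had a median of -1.02 and 0 were under 0.05. Their sums did not overlap, at 72.9, 60.6 and 35.4 CPM at 7 dpi, against 134.8, 141.1 and 73.9 CPM at 4 dpi. Whether cells of other types in that sort took part in these values was not tested.

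Photoreceptor transcripts were present in every library at both times and mostly higher at 7 dpi. Of 32 tested, 29 were higher by sign and 3 lower, with a median log2 difference of 1.24. Sums were 2215, 2775 and 537.2 CPM at 7 dpi, against 444.7, 923.2 and 478.8 CPM at 4 dpi. The groups overlap, because replicate 3 at 7 dpi lay below replicate 2 at 4 dpi. The rod opsin gene rho had 617, 1421 and 41.9 CPM at 7 dpi and 54.7, 332.5 and 85.4 CPM at 4 dpi, and gnat2, which encodes cone transducin alpha, had 115.4, 72.3 and 3.02 CPM at 7 dpi, against 9.29, 36.95 and 3.01 CPM at 4 dpi. Replicate 3 at 7 dpi was the lowest of the 6 for rho. Replicates 1 and 2 at 7 dpi were the highest for 14 and 13 of the 32 genes. The median was 0.80 without replicate 1 and 0.93 without replicate 2 at 7 dpi, and 2.00 without replicate 2 at 4 dpi.

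Of the 32 tested genes of the photoreceptor list, opn1sw2 and arr3b were under an unadjusted p of 0.05. Both were higher at 7 dpi, as were 2.18% of all genes at that p. The blue cone opsin gene opn1sw2 had 14.7, 3.51 and 11.2 CPM at 7 dpi, against 2.00, 4.52 and 2.17 CPM at 4 dpi, with a log2 difference of 1.76 (unadjusted p = 0.0381 in edgeR). The cone arrestin gene arr3b had 33.5, 102.7 and 160.7 CPM at 7 dpi, against 0.93, 21.4 and 7.42 CPM at 4 dpi. Its groups do not overlap, and its highest library was replicate 3, where rho was lowest. In ablated larvae 9 of the 32 photoreceptor genes were higher and 23 lower at 7 dpi (median -0.23). Of the 32, 4 had an unadjusted p under 0.05 for the difference between the unablated and ablated changes, beside 3.47% of all genes. Markers of retinal neurons gave 17 higher and 4 lower of 21 in the unablated larvae (median 0.85, or -0.18 without replicate 2 at 7 dpi, with rbpms2b under 0.05), and Mueller glia markers 7 higher and 6 lower of 13 (median 0.08, or -0.38 without replicate 2 at 7 dpi).

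Lens genes were also lower at 7 dpi, and this too rested on 1 library. Of 13 tested lens genes, 12 were lower by sign, with a median log2 difference of -3.25. Of the 12, 6 had an unadjusted p under 0.05, where 1.98% of all genes were lower at that p. Sums were 7.65, 23.7 and 5.71 CPM at 7 dpi, against 6.27, 9.39 and 311.8 CPM at 4 dpi, and replicate 3 at 4 dpi was the highest for 12 of the 13. Without it 9 were higher and 5 lower of 14 tested, the median was 1.01 and 0 genes were under 0.05. The crystallin gene crygmx, for example, had 0.56, 0.65 and 0 CPM at 7 dpi, against 0, 0.26 and 58.95 CPM at 4 dpi.

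Markers of other cell types were unevenly spread over the libraries. Keratinocyte and corneal genes summed to 65.5, 444.6 and 244 CPM at 7 dpi, against 460.9, 171.9 and 402.7 CPM at 4 dpi, which overlap. Endothelial genes (17 tested, 12 higher, 5 lower, median 1.12, or 0.61 without replicate 1 at 7 dpi) summed to 16.7, 39.8 and 17.4 CPM at 7 dpi, against 5.43, 13.5 and 8.32 CPM at 4 dpi. Of the 17, tek, an endothelial receptor, was higher at an unadjusted p under 0.05, as were 2.18% of all genes. The defining endothelial receptor, kdrl, had 0 counts at 7 dpi and 12 at 4 dpi. Skeletal muscle genes (13 tested, 8 higher, 5 lower, median 1.07) also had sums without overlap. These sums were 43.7, 54.3 and 69.0 CPM at 7 dpi, against 15.2, 26.4 and 32.9 CPM at 4 dpi. Without replicate 2 at 7 dpi 6 muscle genes were higher and 7 lower of 15. The actin gene acta1b made up most of each sum except in replicate 2 at 7 dpi. It had 35.3, 17.6 and 66.5 CPM at 7 dpi, against 11.3, 21.6 and 23.9 CPM at 4 dpi, which overlap. The muscle markers ckma and mylpfa had 3 and 5 counts at 7 dpi, against 8 and 57 at 4 dpi. Fibroblast and periocular genes gave 9 higher and 4 lower of 13 (median 1.88, or 0.62 without replicate 2 and 0.48 without replicate 3 at 7 dpi). The smooth muscle actin gene acta2 made up 421.4 of their 446.6 CPM in replicate 2 at 7 dpi, whereas col1a1a and col1a2 were at most 0.08 CPM in all 6 libraries. Macrophage markers summed to 40.7, 108 and 8.56 CPM at 7 dpi, against 26.1, 106 and 5.50 CPM at 4 dpi (16 higher, 6 lower of 23, median 0.53). Without replicate 2 at 7 dpi 2 were higher and 20 lower (median -1.80), and without replicate 2 at 4 dpi 18 were higher and 4 lower (median 3.84). These 2 libraries had the highest sum of their group, with mpeg1.1, a macrophage pore protein gene, at 0.03, 9.51 and 0 CPM at 7 dpi and 0, 4.15 and 0 CPM at 4 dpi. The adult-type globin genes hbaa1 and hbba1 had 0 counts in all 6. The part of these cell types in the differences of other genes was not tested.

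**Figure D4:**
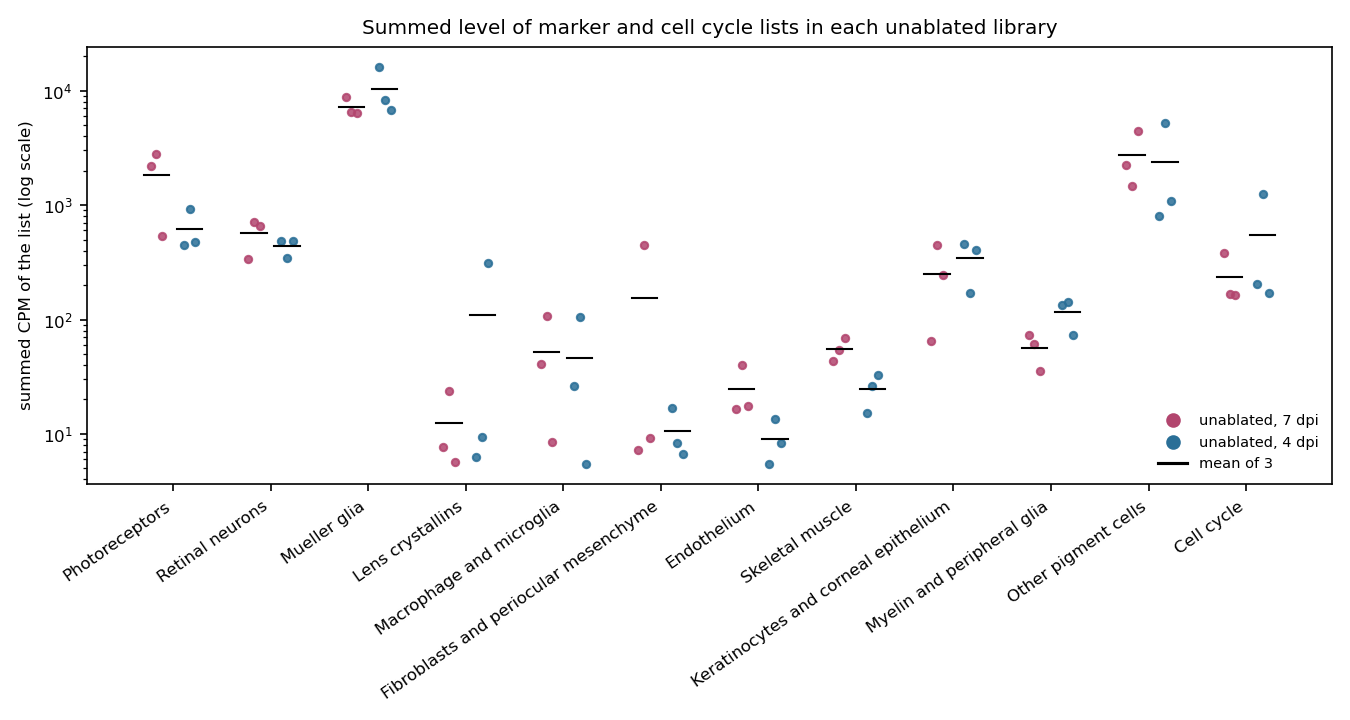
Summed CPM (log axis) of 12 gene lists in each unablated library, 7 dpi left of 4 dpi. The cell cycle sum is high in replicate 2 at 4 dpi (1256 CPM), and the lens sum in replicate 3 at 4 dpi (311.8 CPM).

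Clock genes were even in sign. Of 36 tested, 18 were higher and 18 lower (median 0.06, or -0.14 without replicate 3 at 7 dpi). Under an unadjusted p of 0.05 were 2, tefb and dbpb, both lower, where 1.98% of all genes were lower at that p. In 3 of the 36 all 7 dpi libraries lay below all 4 dpi libraries, beside 4% of all genes. The PAR bZIP factor gene tefb, a clock output, had 16.4, 8.52 and 31.1 CPM at 7 dpi, against 60.6, 38.61 and 55.2 CPM at 4 dpi, without overlap, and a log2 difference of -1.46 (SE 0.52, unadjusted p = 0.0117 in edgeR). The related dbpb had 227.2, 603.6 and 181.5 CPM at 7 dpi, against 937, 574.1 and 569.2 CPM at 4 dpi, with a log2 difference of -1.04, and replicate 2 at 7 dpi overlapped the earlier group. The cryptochrome gene cry1ba, a light-responsive repressor of the clock, had 18.3, 33.8 and 58.5 CPM at 7 dpi, against 92.1, 67.5 and 88.5 CPM at 4 dpi, again without overlap. The labels do not state the time of day at which larvae were sampled. Immediate early and dissociation genes gave 25 higher and 7 lower of 32 (median 0.27, or 0.09 without replicate 1 at 7 dpi), and fosab, an AP-1 factor gene, had 1737, 860.2 and 173.6 CPM at 7 dpi, against 909.3, 471.5 and 1029 CPM at 4 dpi.

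Of 32 tested cytokine, chemokine and complement genes, cxcl8a, cxcl18b and ccl25b were higher at 7 dpi at an unadjusted p under 0.05 in edgeR. Of all genes, 2.18% were higher at that p. The matrix genes nid1a and timp2b, of 36 tested, were lower at that p, as were 1.98% of all genes. With 1179 counts at 7 dpi and 0 at 4 dpi, ccl25b had a 7 dpi mean 225-fold the level of 3 counts per library at 4 dpi. That level covers counting error only. Nearly all of those counts lay in replicate 2 at 7 dpi. No gene of the cytokine, chemokine and complement list had all 7 dpi libraries above all 4 dpi libraries, where 3.45% of all tested genes did. The chemokine gene cxcl18b had 18, 75.9 and 265.7 CPM at 7 dpi, against 11.11, 5.22 and 27.3 CPM at 4 dpi, a log2 difference of 3.04 (SE 0.95), with replicate 1 at 7 dpi inside the earlier range. The basement membrane linker gene nid1a had 0.11, 1.18 and 0.49 CPM at 7 dpi, against 6.69, 4.43 and 4.39 CPM at 4 dpi, without overlap (log2 difference -3.12). Cytokine, chemokine and complement genes gave 21 higher and 11 lower of 32, with a median of 0.30, or 0.10 with genes lacking counts in one group at the bound that 3 counts per library allow. Without replicate 2 at 7 dpi 11 were higher and 22 lower (median -0.79). Matrix and basement membrane genes gave 13 higher and 23 lower of 36 (median -0.37), and 20 higher and 16 lower without replicate 2 at 4 dpi (median 0.25). Junction genes gave 11 higher and 19 lower of 30 (median -0.25, -0.19 at that bound, and -0.02 without replicate 2 at 7 dpi). Of the 30, cldna and f11r.1 were lower at an unadjusted p under 0.05, as were 1.98% of all genes.

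Across all tested genes, list members such as manf and arr3b included, genes were also named by the smallest unadjusted p. Separate groups and at least 5 CPM in the higher one were required. This choice used the comparison itself, so their values are a description. Of the 306 genes higher and 403 lower that qualified, 15 were taken each way. Higher at 7 dpi beside manf was slc30a8 (chr19:46751130-46769977), a zinc transporter gene, with 120.7, 43.8 and 81.0 CPM at 7 dpi, against 16.3, 30.5 and 9.41 CPM at 4 dpi (log2 difference 2.13, SE 0.55). The sphingosine-1-phosphate receptor gene s1pr5a had 9.84, 8.29 and 21.9 CPM at 7 dpi, against 0.87, 1.70 and 0.61 CPM at 4 dpi (log2 difference 3.65, SE 0.95). The Usher syndrome scaffold gene ush1c had the tightest replicates, at 5.07, 5.00 and 5.38 CPM at 7 dpi and 1.25, 1.17 and 1.11 CPM at 4 dpi (log2 difference 2.12, SE 0.58). The link protein gene hapln4, which ties hyaluronan to proteoglycans, had 82.6, 21.9 and 100.9 CPM at 7 dpi, against 15.9, 8.20 and 16.04 CPM at 4 dpi. For psph, the last enzyme of serine synthesis, 84.7, 76.9 and 222.8 CPM at 7 dpi stood against 41.9, 29.5 and 51.0 CPM at 4 dpi. The adrenomedullin gene admb had 0.06, 1.34 and 15.3 CPM at 7 dpi and 0 counts at 4 dpi, with nearly all of its 504 counts in replicate 3. Its 7 dpi mean was 83.5-fold the level of 3 counts per library at 4 dpi, which covers counting error only. The 95% interval of its log2 difference ran from 4.51 to 16.9. Replicate 1 at 7 dpi was under its own level of 3 counts (0.0841 CPM), so the separate groups of admb rest on very few counts there. The others were nom1, gale, eif4e1c, arr3b, nucb2b, slc19a2, pdcb and wars, with log2 differences of 1.72 to 3.32.

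Lower at 7 dpi was fgfr3 (chr13:13085956-13163718), an FGF receptor gene and the best measured of this set, with 74.0, 88.0 and 81.5 CPM at 7 dpi, against 143.4, 174.7 and 174.8 CPM at 4 dpi. Its log2 difference was -1.02 (SE 0.34, interval -1.73 to -0.31). The glycogenin gene gyg1b (chr24:3276070-3294582), which primes glycogen synthesis, had 0.25, 0 and 0 CPM at 7 dpi (9 counts), against 6.74, 3.39 and 5.15 CPM at 4 dpi (709 counts), a log2 difference of -5.81 (SE 1.32). The alpha-2 adrenergic receptor gene adra2da had 2.78, 2.02 and 1.148 CPM at 7 dpi, against 13.8, 5.92 and 20.7 CPM at 4 dpi. Replicate 2 was the lowest of the 4 dpi libraries for both gyg1b and adra2da.

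Metabolic and adhesion genes were also among the lower ones. For aldh2.1, a mitochondrial aldehyde dehydrogenase gene, 74.7, 48.1 and 18.6 CPM at 7 dpi stood against 212.3, 81.9 and 111.6 CPM at 4 dpi. The protocadherin gene pcdh10b, which encodes an adhesion protein, had 14.9, 20.1 and 13.2 CPM at 7 dpi, against 43.8, 34.5 and 31.7 CPM at 4 dpi. The others were kdm6bb, ccdc160, ace, hyal4, coasy, glsl, mhc1zja, DTX4 (1 of many) and extl2, with log2 differences of -3.73 to -1.14. No gene of the 30 passed in edgeR after adjustment, and 7 of them (manf, s1pr5a, nom1, ush1c, admb, gyg1b and adra2da) were among the 44 that DESeq2 called.

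**Figure D5:**
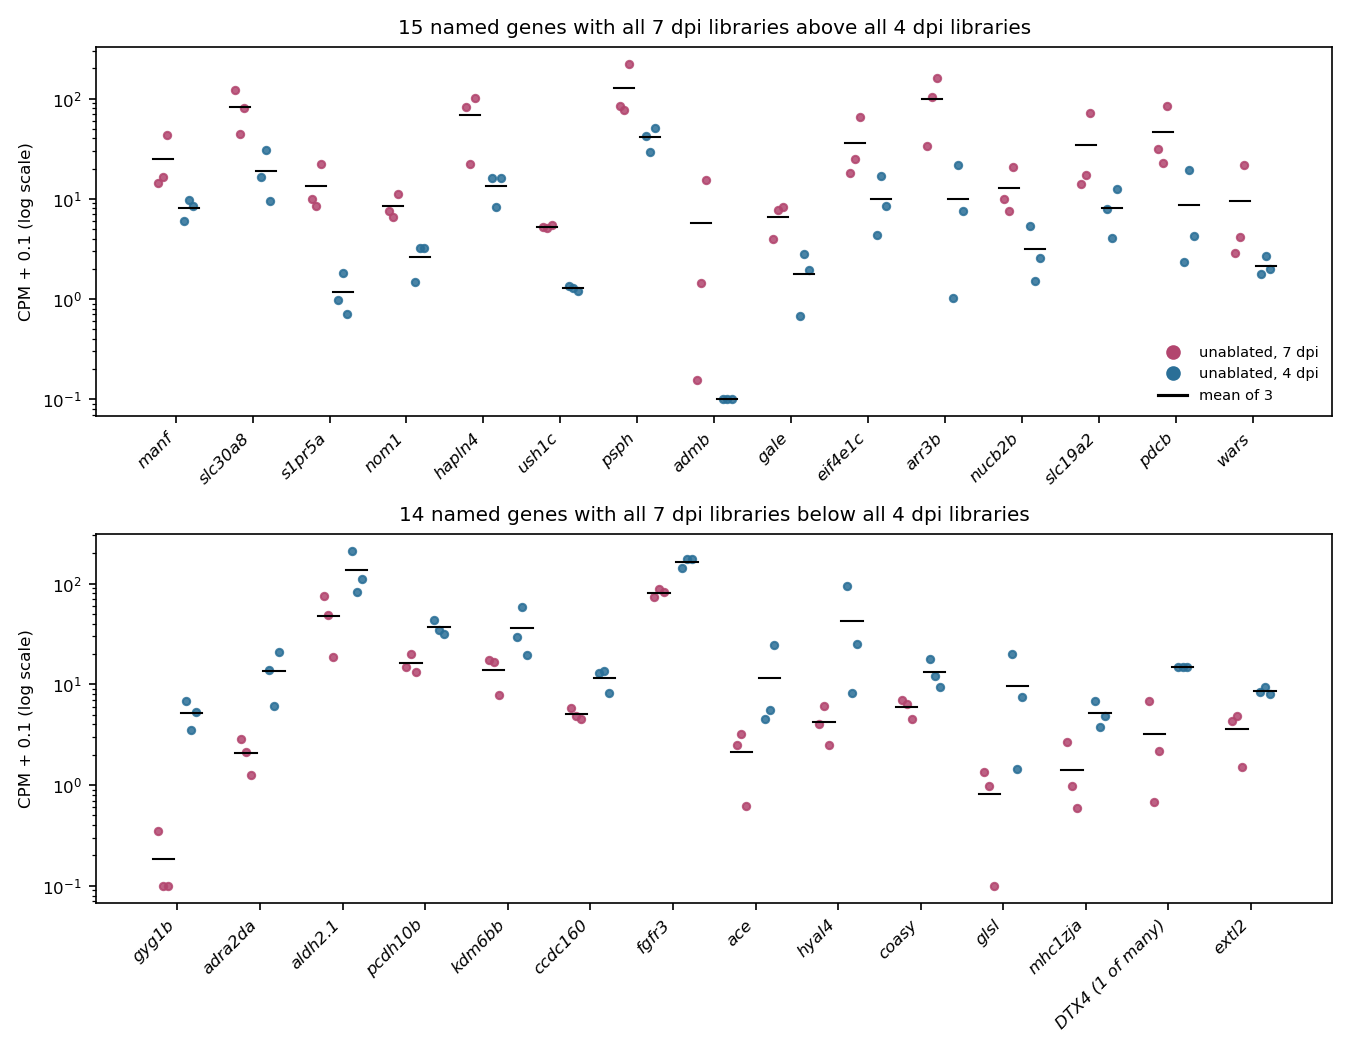
CPM + 0.1 (log axis) of the 15 higher and 14 of the 15 lower named genes in each unablated library, 7 dpi left of 4 dpi. By the choice of genes the groups do not overlap; ush1c and fgfr3 have the closest replicates, and admb is at 0 counts in all 4 dpi libraries.

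The ablated larvae, which share no library with the comparison above, gave a count of the same kind. Between 7 and 4 dpi, 0 of 20093 genes passed in edgeR (0%), with 821 under an unadjusted p of 0.05 (4.09%), while voom called 1 and DESeq2 27. For the difference between the unablated and ablated changes, 0 passed (0%), with 697 under an unadjusted p of 0.05 (3.47%) and a smallest adjusted p of 0.99994. Here voom called 0 and DESeq2 29. The genes with the smallest p of that difference, beside manf and calr3b, included nom1, for which unablated libraries averaged 8.36 CPM at 7 dpi and 2.54 CPM at 4 dpi and ablated libraries 7.10 CPM at 7 dpi and 12.8 CPM at 4 dpi, and gyg1b, at 1.86 CPM at 7 dpi and 2.01 CPM at 4 dpi in ablated larvae. On the positive side, beside manf, calr3b and nom1, stood scara3, a scavenger receptor gene, and adamtsl7, whose unablated value came from 18.9 CPM in replicate 3 at 7 dpi. For scara3 the log2 differences were 3.37 in unablated larvae and -4.10 in ablated larvae. Its unablated means were 0.67 CPM at 7 dpi (63 counts) and 0.06 CPM at 4 dpi (8 counts), the latter near the level of 3 counts. Its ablated means were 0.49 CPM at 7 dpi and 8.50 CPM at 4 dpi, with 15.1 CPM in replicate 1 at 4 dpi. On the negative side, beside gyg1b, stood hes2.2, cav2 and srgap3. The caveolin gene cav2, whose protein lines membrane invaginations, averaged 2.42 CPM at 7 dpi and 14.9 CPM at 4 dpi in unablated larvae, with 32.9 CPM in replicate 1 at 4 dpi, and 2.97 CPM at 7 dpi and 0.31 CPM at 4 dpi in ablated larvae.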

How the data were processed

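The authors deposited 1 table for each of the 3 times, with read counts and TPM of its 6 libraries for 34326 genes, per the file headers. The submitters' processing notes name GRCz10, with the aligner and counter not given in these sources; the libraries are SMART-Seq v4 and Nextera XT, per the labels' protocols. From the counts, genes were kept by edgeR's filterByExpr (20093 of 34326), scaled by TMM and fitted with edgeR 4.0.16's robust quasi-likelihood model (R 4.3.3) to the means of all 6 groups of 3 libraries (12 residual degrees of freedom). P-values were adjusted by Benjamini-Hochberg over all tested genes at 0.05. CPM use TMM library sizes, and list sums cover all matched genes of a list, tested or not. TPM were used for levels between genes, shown for both times without a test between them, and as an alternative scale of the list sums. Intervals are at 95%.

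No 2 libraries held identical values. Alternatives were limma 3.58.1 (voom), DESeq2 1.42.0, other filters and scaling, replicate blocks, and leaving out libraries. Ablated and unablated libraries of the same time and number deviated together (correlations of 0.187 to 0.449), so the difference was also fitted with these pairs as a block, which left it at 0 calls.

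The gene lists (1017 symbols, 992 matched to the files, 884 genes tested) were chosen with earlier results of these data known, so the planned permutation tests of list sums are not reported. Named genes were the 15 smallest p each way among genes with separate groups, a symbol that is no clone name and at least 5 CPM in the higher group, the 5 smallest p each way of the difference, the 2 highest genes of each list, and rpe65a. Other list genes were named after their values were seen, and for many lists the 2 highest are not printed. One gene that the rule names is not reported here. The code was tested on simulated data.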

Additional observations from a re-analysis of the deposited data

How the results depend on the processing

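For 7 against 4 dpi in unablated larvae the count of 0 calls held in edgeR under every alternative scaling, filter and threshold run, and in voom; DESeq2 called 44, and leaving out 1 library gave 0 to 1 (dctpp1, adjusted p = 0.0159, without replicate 2 at 4 dpi). For ablated larvae DESeq2 called 27 and voom 1; for the difference of changes DESeq2 called 29, and leaving out 1 library gave 0 to 1. At an unadjusted p under 0.05 the count for unablated larvae ran from 374 with the 6 libraries alone to 1572 without the first replicates. The same-number correlations of deviations at 7 and 4 dpi were 0.155, 0.0209 and 0.197, so the numbers were not taken to pair these samples; replicate block fits, over 18 libraries and over the 6, both gave 0 calls. The sign of rpe65a held under the 15 alternatives. So did the signs of the 30 genes taken by smallest p (12 alternatives for admb). Those 30 were chosen for separate groups in this same comparison, which left a change of sign hardly possible. The other named genes were not followed there. The list medians of photoreceptors (0.73 to 2.00) and chaperones (0.64 to 1.48) kept their sign. When each of the 6 libraries was left out in turn, the medians of 14 of the 37 lists kept their sign and those of 23 changed it or reached 0 at least once. The causes were not tested. At 100 CPM or more, where counting error is small, the spread between replicates still gave a median interval half-width of 1.08 on the log2 scale.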

Other observations

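Glycolysis genes gave 19 higher and 7 lower of 26 at 7 dpi (median log2 difference 0.29, or 0.08 without replicate 3 at 7 dpi). Of the 26, the hexokinase genes hk1 and hk2 were higher at an unadjusted p under 0.05 in edgeR, as were 2.18% of all genes. Cholesterol synthesis genes gave 12 higher and 8 lower of 20 (median 0.27), lipid handling genes 17 higher and 10 lower of 27 (median 0.26), and antioxidant and metal response genes 17 higher and 12 lower of 29 (median 0.06, from 0.02 to 0.25 with 1 library left out). Without replicate 1 at 7 dpi, cholesterol genes gave 9 higher and 12 lower (median -0.22) and lipid genes 11 higher and 17 lower (median -0.43). Retinoic acid and thyroid hormone signalling genes gave 16 higher and 10 lower of 26 (median 0.17), interferon response genes 11 higher and 5 lower of 16 (median 0.27), and Wnt, BMP and TGF-beta genes 20 higher and 17 lower of 39 (median 0.03). With 1 library left out these medians ran from -0.06 to 0.54, from 0 to 0.43, and from -0.34 to 0.20. Keratinocyte genes gave 10 higher and 8 lower of 18 (median 0.35, or 0.12 at the bound of 3 counts per library), neutrophil and lymphocyte genes 6 higher and 3 lower of 9 (median 0.96), and erythrocyte genes 4 higher and 2 lower of 6 (median 0.23). With 1 library left out the keratinocyte median ran from -0.50 without replicate 3 at 7 dpi to 1.48 without replicate 3 at 4 dpi, the neutrophil median from 0.10 without replicate 3 at 7 dpi to 2.93 without replicate 2 at 4 dpi, and the erythrocyte median from -0.17 without replicate 2 at 7 dpi to 0.23.

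Of the genes of other pigment cells, the abundant gch2 and pnp4a were measurable in every library and varied between replicates. The marker ltk had 0.03, 0.76 and 1.18 CPM at 7 dpi, against 0.08, 1.47 and 0.58 CPM at 4 dpi. Its value in replicate 1 at 7 dpi was under the level of 3 counts. The gene gch2, which encodes an enzyme of the pteridine pathway of xanthophores, had 1497, 805 and 3524 CPM at 7 dpi, against 293.9, 4151 and 679.9 CPM at 4 dpi. The iridophore purine enzyme gene pnp4a had 622, 445 and 847.5 CPM at 7 dpi, against 345, 887.5 and 274.6 CPM at 4 dpi. Both pairs of groups overlap, and replicate 2 at 4 dpi was the highest of the 6 for both. Of the 13 tested genes of this list, 8 were higher and 5 lower at 7 dpi (median 0.18), none under an unadjusted p of 0.05. Without replicate 2 at 7 dpi 2 were higher and 11 lower (median -0.62), and without replicate 2 at 4 dpi 10 were higher and 3 lower (median 1.75).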
